A study of Homo sapiens with 6 samples.

Results

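Clone c1 is a line of K562 cells, the human erythroleukaemia line, that carries a doxycycline-inducible short hairpin RNA (shRNA) against CDAN1, and it gave 2 of the 6 RNA-seq libraries of the study. Its 2 libraries (CDAN1-shRNA-c1, without and with doxycycline) were set against the 4 libraries of the other 2 clones: NT, whose hairpin has no target in the cell (NT-shRNA), and c2, a further clone with a hairpin against CDAN1 (CDAN1-shRNA-c2). Every clone was kept in puromycin at 2 µg/ml, also without induction. The induced culture of each clone received doxycycline at 1 µg/ml and all 6 cultures were taken at day 4. Each clone is a single line sampled by 1 uninduced and 1 induced culture, so p-values measure the spread among these 6 libraries and not the spread among clones. What follows is the set of genes and lineage programmes in which c1 stood apart from both other clones, with the doxycycline state as a covariate.

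K562 cells came from a chronic myeloid leukaemia and express the BCR-ABL kinase. They hold an early erythroid state with embryonic and fetal globins, and can be moved towards the megakaryocytic or a more mature erythroid state. Their chromosome set is abnormal and differs between sublines. CDAN1 encodes codanin, a cytoplasmic protein that binds the histone chaperones ASF1A and ASF1B, and its inherited mutations cause congenital dyserythropoietic anaemia.

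The libraries held between 28318555 and 32352246 estimated reads. Levels are given as CPM, the reads of a gene relative to the total of its library, scaled between libraries by TMM (trimmed mean of M values), and the 2 values of a clone are given as uninduced, then induced. Erythroid markers were present in all 6 libraries, with GATA1 between 313 and 363 CPM and TAL1 between 140 and 181 CPM. Markers of T cells (CD3E) and monocytes (CD14) reached no more than 0.583 and 0.6 CPM, while the epithelial marker EPCAM stood between 24 and 55.1 CPM. Across genes, the libraries of a clone correlated at 0.986 to 0.988, those of c1 with those of NT at 0.966 to 0.969, those of c1 with those of c2 at 0.954 to 0.958, and those of c2 with those of NT at 0.961 to 0.963. These correlations are over genes of a shared line and carry no test.

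The hairpin's target was low in c1 already before induction. CDAN1 (ENSG00000140326, GRCh38 chromosome 15, 42723544 to 42737128) stood at 62.5 and 70.2 CPM in NT, 55.4 and 29.8 CPM in c2, and 37.0 and 16.96 CPM in c1. Uninduced c1 held 59.3% of the uninduced NT level and 66.8% of the uninduced c2 level. Induction left 45.8% of the uninduced level in c1, 53.7% in c2 and 112% in NT. Induced c2 lay below uninduced c1, so the groups overlapped, and over both states the c1 difference was −1.09 ± 0.395 on the log2 scale (SE, 2 against 4 libraries, edgeR adjusted p = 0.188). DESeq2 gave the same gene an adjusted p of 0.0196, and edgeR with the clone as a factor gave 0.0153.

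Of 14075 genes tested, 472 (3.35%) were called between c1 and the other 2 clones by edgeR's quasi-likelihood test at an adjusted p under 0.05. Fewer were higher in c1 (161 genes, 1.14%) than lower (311 genes, 2.21%), and in all 472 both c1 libraries lay outside the range of the other 4. They are called private to c1 here. Over all genes tested, both c1 libraries lay above the other 4 in 18.2% and below them in 17.4%, and the median log2 difference was −0.008. Among the private genes the median log2 difference was 0.64 for those higher and −0.71 for those lower. A difference over 2-fold was reached by 51 higher and 118 lower genes, and one over 8-fold by 9 higher and 36 lower genes. The same test called 293 genes for c2 against the other 2 clones and 25 for NT. DESeq2 called 1731 genes for c1 and limma voom 417, while without a library of NT or c2 edgeR called 62 to 104 and without either c1 library 0.

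The largest losses in c1 fell on genes of several kinds. S100A6 (ENSG00000197956, chromosome 1, 153534599 to 153536244), a calcium-binding protein of the S100 family, was listed at 0 in both c1 libraries. NT held 19.6 and 20.7 CPM of it and c2 held 17.4 and 14.9 CPM, or 450 to 552 estimated reads a library. Against a floor of 3 reads per library this is at least 171-fold lower (edgeR adjusted p = 0.00458). IMPACT (ENSG00000154059, chromosome 18, 24426616 to 24453535), an inhibitor of the translation kinase GCN2, had 2 and 6 reads in c1 and 265 to 446 in the other libraries. Its log2 difference was −6.49 ± 0.45 (edgeR adjusted p = 0.00606), with −7.39 without induced c1 and −5.93 without uninduced c1. DOCK10, an exchange factor for small GTPases, stood at 15.3 and 14.8 CPM in NT, 13.1 and 12.7 CPM in c2, and 0.353 and 0.132 CPM in c1. In these 3 genes c2 and NT differed from each other by at most 0.571 on the log2 scale in either state, and no c1 library overlapped them.

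DCBLD2 (ENSG00000057019, chromosome 3, 98795941 to 98901689), a transmembrane receptor-like protein, had the smallest p of all genes. It stood at 39.4 and 35.0 CPM in NT, 41.0 and 38.8 CPM in c2, and 3.67 and 3.34 CPM in c1, a log2 difference of −3.46 ± 0.11 (edgeR adjusted p = 0.00173). The potassium channel gene KCNQ5 stood at 10.7 to 14.5 CPM in the other 4 libraries and at 0.424 and 0.298 CPM in c1 (−5.06 ± 0.26, edgeR adjusted p = 0.00391). NEO1, which encodes the netrin and RGM receptor neogenin, and ANPEP, which encodes aminopeptidase N, both lie on the long arm of chromosome 15. NEO1 stood at 15.5 to 19.6 CPM in the others and at 0.777 and 1.26 CPM in c1, and ANPEP at 7.35 to 9.52 CPM in the others and at 0.742 and 0.562 CPM in c1. Both are far below the level that other genes of that arm kept in c1, which is given further on. With an offset for transcript length the log2 differences were −2.72 for DCBLD2, −5.94 for KCNQ5, −3.02 for NEO1 and −4.31 for ANPEP, and all 4 kept their call.

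Among the other genes of the 15 largest losses, the transcription factor TFCP2L1 stood at 8.10 to 13.5 CPM in the other libraries and 1.02 and 0.695 CPM in c1. The ciliary protein gene EVC2 stood at 5.57 to 6.24 CPM and at 0.601 and 0.496 CPM in c1. For CLCN4, a chloride-proton exchanger, KANK1, a cytoskeletal adaptor, and IFITM2, an interferon-induced membrane protein, NT and c2 also differed from each other. IFITM2 held 70.0 and 69.2 CPM in NT, 144.8 and 137.7 CPM in c2, and 9.36 and 7.87 CPM in c1 (−3.62 ± 0.47, edgeR adjusted p = 0.028). CCDC152 stood at 10.3 to 14.1 CPM in the others and 1.66 and 0.695 CPM in c1. Its gene overlaps SELENOP, which was not called (log2 difference −0.65 ± 0.36, edgeR adjusted p = 0.346), and IFITM2 overlaps IFITM1. The library strand is not given in the sources used here, so reads of overlapping genes cannot be told apart.

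**Figure D1:**
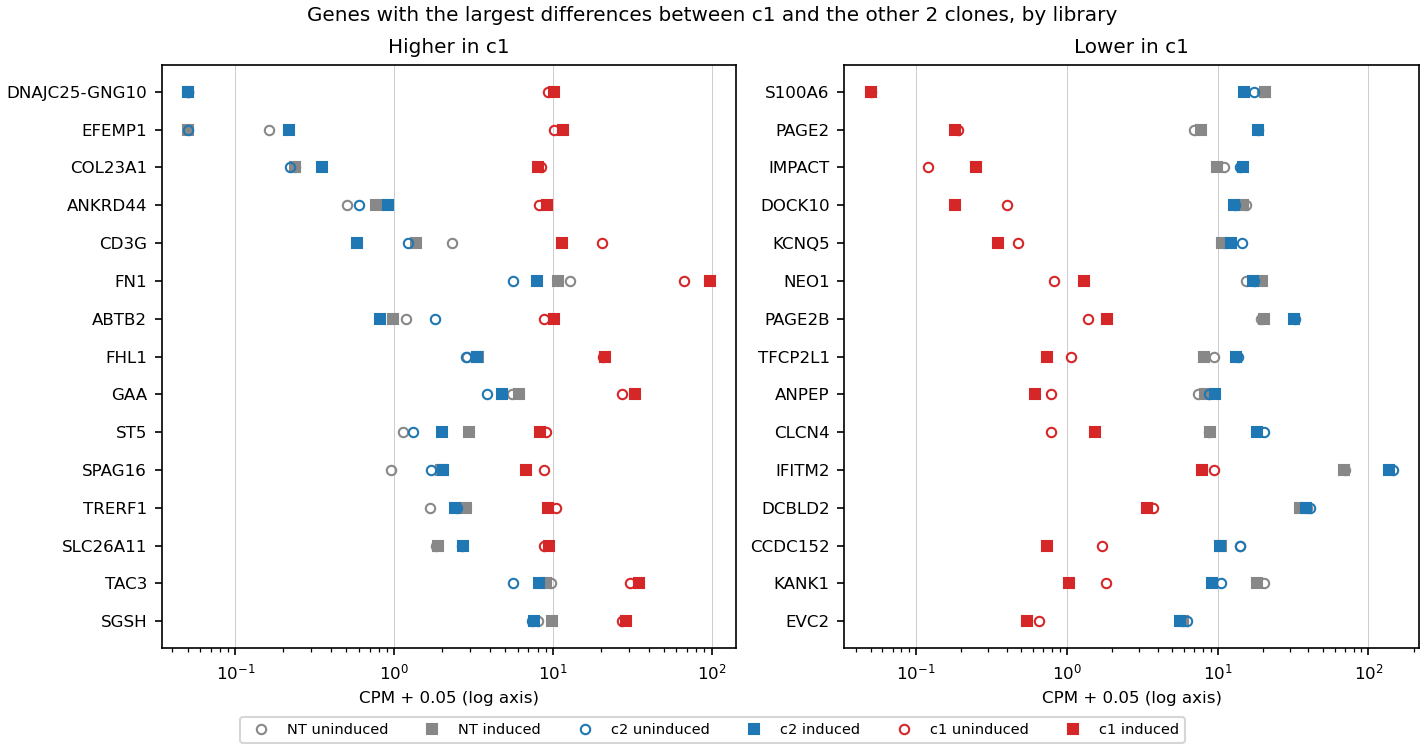
Level of the 15 private genes with the largest difference in each direction, in CPM plus 0.05 on a log axis, 1 symbol per library (grey NT, blue c2, red c1, open uninduced, filled induced). In every row both red symbols lie to 1 side of all others, and S100A6 is at 0 in both c1 libraries.

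Gains in c1 were fewer. EFEMP1 and COL23A1 were near 0 in the other clones, whereas FN1 was expressed in all 6 libraries. EFEMP1 (ENSG00000115380, chromosome 2, 55865967 to 55924139), an extracellular matrix glycoprotein, had 285 and 346 estimated reads in c1 and 0 to 5 in the other 4 libraries (edgeR adjusted p = 0.0225). COL23A1 (ENSG00000050767, chromosome 5, 178237618 to 178590555), a transmembrane collagen, stood at 8.336 and 8.003 CPM in c1 and at no more than 0.299 CPM elsewhere. Its log2 difference was 5.25 ± 0.28 (edgeR adjusted p = 0.00391). FN1 (ENSG00000115414, chromosome 2, 215360440 to 215436172), which encodes fibronectin, stood at 12.7 and 10.7 CPM in NT, 5.52 and 7.83 CPM in c2, and 67.3 and 97.3 CPM in c1. The FN1 difference was 3.15 ± 0.33 on the log2 scale (edgeR adjusted p = 0.0209), with no overlap between the groups.

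CD3G, a chain of the T-cell receptor complex, stood at 20.2 and 11.4 CPM in c1 and at 0.531 to 2.26 CPM in the others (3.60 ± 0.40, edgeR adjusted p = 0.0209), while CD3E of the same complex stayed at or below 0.583 CPM in all 6 libraries. FHL1, a LIM-domain protein of muscle, stood at 20.6 and 21.3 CPM in c1 and 2.78 to 3.34 CPM in the others (2.78 ± 0.13, edgeR adjusted p = 0.00391). ANKRD44 (8.12 and 9.16 CPM in c1, 0.452 to 0.863 CPM in the others) and ABTB2 (8.76 and 10.2 CPM in c1, 0.763 to 1.75 CPM in the others) were higher as well. With an offset for transcript length the ANKRD44 log2 difference fell from 3.77 to 2.42 and missed the threshold (edgeR adjusted p = 0.0581). TAC3, the precursor of neurokinin B, stood at 30.4 and 34.7 CPM in c1 and 5.52 to 9.65 CPM in the others. ST5, SPAG16 and TRERF1 had log2 differences of 2.37, 2.30 and 2.10. For ST5 the same offset gave 1.47 (edgeR adjusted p = 0.123), and the fit without uninduced c1 gave 1.76.

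A run of neighbouring genes on the long arm of chromosome 17 rose in c1. GAA, the lysosomal enzyme that breaks down glycogen, stood at 27.1 and 32.8 CPM in c1 and 3.77 to 6.04 CPM in the others (2.58 ± 0.19, edgeR adjusted p = 0.00696). SGSH, a lysosomal enzyme of heparan sulphate breakdown, stood at 27.2 and 28.8 CPM in c1 and 7.30 to 9.79 CPM in the others (1.78 ± 0.14, edgeR adjusted p = 0.00897). SLC26A11, an anion transporter gene that overlaps SGSH, stood at 8.69 and 9.46 CPM in c1 and 1.77 to 2.65 CPM in the others. EIF4A3 and CARD14, which lie between GAA and SGSH, had log2 differences of 0.39 and 0.35. DNAJC25-GNG10, a read-through transcript, was listed at 0 in the other 4 libraries and at 9.22 and 10.1 CPM in c1, at least 85.4-fold higher against the floor of 3 reads (edgeR adjusted p = 0.0303, DESeq2 0.0693). It shares its sequence with DNAJC25 and GNG10, so its value is uncertain. GNG10 itself stood at 39.0 and 42.1 CPM in c1 and at 26.9 to 30.4 CPM in the others (0.52 ± 0.09, edgeR adjusted p = 0.0432).

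Promoters of genes near 0 in c1 are shown beside one that was near 0 in the other clones and beside that of ALAS2, an erythroid gene that rose in c1 and is described below. Each is 300 bases from RefSeq on GRCh38.p14, from 250 before to 50 after the start, 5′ to 3′ on the gene's strand. Capitals mark CG dinucleotides in the first 3, and the hexamer AGATAA or its reverse complement TTATCT, the core that GATA factors recognise, in ALAS2. They lie at chr1:153535942-153536241 (minus strand), chr18:24426420-24426719 (plus), chr5:178590344-178590643 (minus) and chrX:55030928-55031227 (minus).
S100A6: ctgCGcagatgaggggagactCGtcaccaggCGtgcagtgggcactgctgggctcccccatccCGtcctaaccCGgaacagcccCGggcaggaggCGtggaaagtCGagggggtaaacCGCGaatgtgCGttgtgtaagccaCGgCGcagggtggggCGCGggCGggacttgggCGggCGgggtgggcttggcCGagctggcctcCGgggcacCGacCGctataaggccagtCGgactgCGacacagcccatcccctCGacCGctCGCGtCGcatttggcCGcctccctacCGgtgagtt
IMPACT: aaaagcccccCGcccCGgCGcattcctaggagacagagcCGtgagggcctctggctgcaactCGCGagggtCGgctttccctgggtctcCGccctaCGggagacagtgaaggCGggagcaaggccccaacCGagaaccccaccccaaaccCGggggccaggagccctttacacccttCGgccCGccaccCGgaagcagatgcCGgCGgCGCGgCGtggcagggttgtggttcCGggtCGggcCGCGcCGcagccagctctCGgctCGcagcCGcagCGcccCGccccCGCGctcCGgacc
COL23A1: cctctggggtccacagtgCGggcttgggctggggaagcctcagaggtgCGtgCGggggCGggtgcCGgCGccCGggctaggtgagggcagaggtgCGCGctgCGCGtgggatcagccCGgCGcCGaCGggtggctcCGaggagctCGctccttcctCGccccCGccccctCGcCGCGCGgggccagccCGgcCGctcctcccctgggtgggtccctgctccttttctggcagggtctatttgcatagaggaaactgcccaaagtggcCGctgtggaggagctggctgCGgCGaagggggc
ALAS2: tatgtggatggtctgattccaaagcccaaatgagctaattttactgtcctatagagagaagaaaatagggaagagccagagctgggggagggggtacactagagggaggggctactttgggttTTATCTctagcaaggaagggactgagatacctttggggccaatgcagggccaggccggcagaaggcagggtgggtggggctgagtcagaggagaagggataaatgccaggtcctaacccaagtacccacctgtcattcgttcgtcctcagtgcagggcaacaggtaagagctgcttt
The windows of S100A6, IMPACT and COL23A1 held 31, 33 and 28 CG dinucleotides and that of ALAS2 held 3. At least 15 were held by 80.4% of the 10328 tested genes with a promoter in the table, by 80.6% of the private genes lower in c1 (195 of 242) and by 76.7% of those higher (99 of 129). The hexamer was found in 5.13% of all these promoters, in 5.79% of the private lower and in 6.2% of the private higher genes. Neither feature set the private genes apart by more than a few percentage points. DNA methylation and factor binding were not analysed here.

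Many of the smaller losses lay on the long arm of chromosome 15, the arm that holds CDAN1. Of 492 genes tested on 15q, 452 (91.9%) had a negative difference and the median was −0.53 on the log2 scale, or 69.3% of the level in the other clones. The arm held 122 of the 311 private genes lower in c1 (24.8% of its genes, against 2.21% of all genes) and 2 of the 161 higher. The 2 genes that rose were the vitamin A receptor gene STRA6 (1.59 ± 0.24, edgeR adjusted p = 0.0373) and the microtubule-binding protein gene MAP1A (0.46 ± 0.07, edgeR adjusted p = 0.0378).

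The 15q shift was broad and of even size. Among its 301 genes at 10 CPM or more, the quartiles of the log2 difference were −0.62 and −0.37. Both c1 libraries lay below the other 4 in 252 of these genes (83.7%, against 16.7% of the 9094 genes at that level). The 8 windows of 10 Mb on the arm with 10 or more of these genes had medians between −0.432 and −0.606. Genes of 15q took 1.98% and 1.97% of the reads in c1, and 2.76% to 2.89% in the other 4 libraries. The arm median was −0.474 without and −0.503 with doxycycline, while c2 minus NT gave 0.062 in both states.

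The called genes of the arm serve different functions. B2M, the light chain of MHC class I, stood at 327.3 and 328.3 CPM in NT, 341.9 and 332.8 CPM in c2, and 237.2 and 217.6 CPM in c1 (−0.55 ± 0.06, edgeR adjusted p = 0.0209). The ubiquitin ligase gene UBE3A gave −0.51 ± 0.06 (edgeR adjusted p = 0.0209), the mitotic cyclin gene CCNB2 gave −0.41 ± 0.06 (edgeR adjusted p = 0.0378), and SPRED1, an inhibitor of RAS signalling, gave −0.60 ± 0.08 (edgeR adjusted p = 0.032). Against this even shift, 5 private genes of the arm were more than 8-fold lower, among them NEO1, ANPEP, CSNK1A1P1 and HERC2P10. CSNK1A1P1 and HERC2P10 are pseudogenes whose values are uncertain, since they share sequence with their parent genes.

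**Figure D2:**
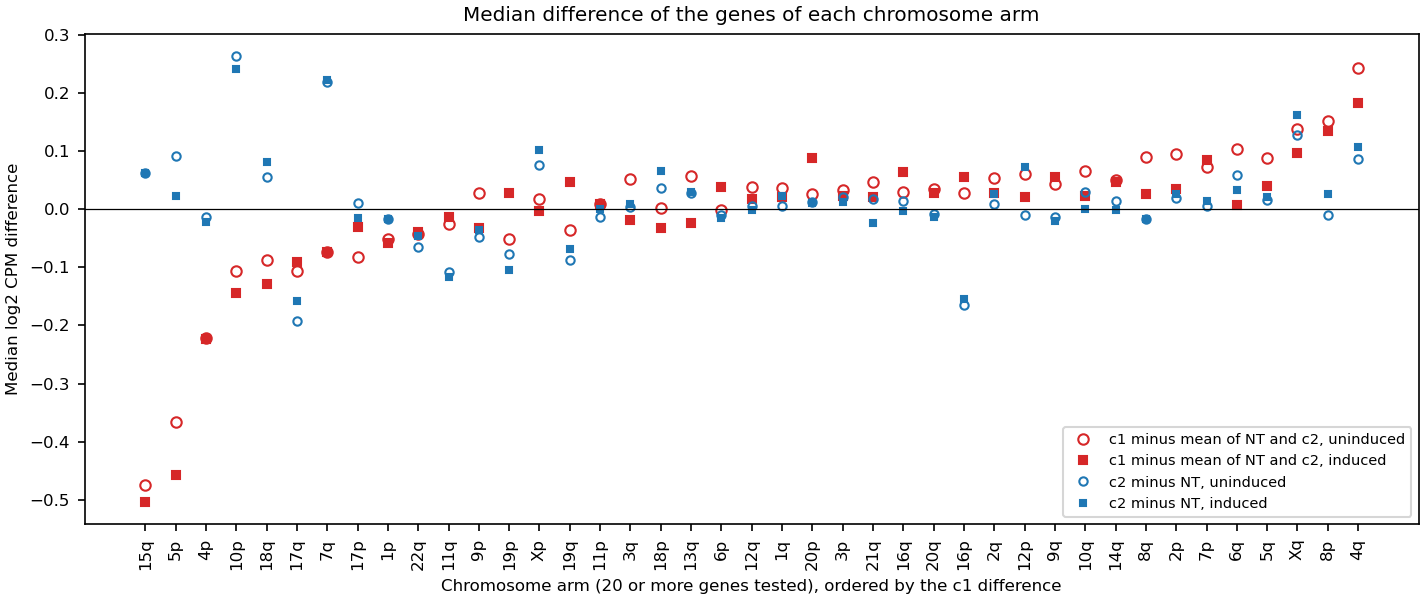
Median log2 CPM difference of the genes tested on each chromosome arm with 20 or more of them, for c1 minus the mean of NT and c2 (red) and for c2 minus NT (blue), without (open) and with (filled) doxycycline. The arms 15q and 5p stand lowest for c1 in both states, at −0.474 and −0.503 and at −0.366 and −0.458, while c2 minus NT lies near 0 on both.

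**Figure D3:**
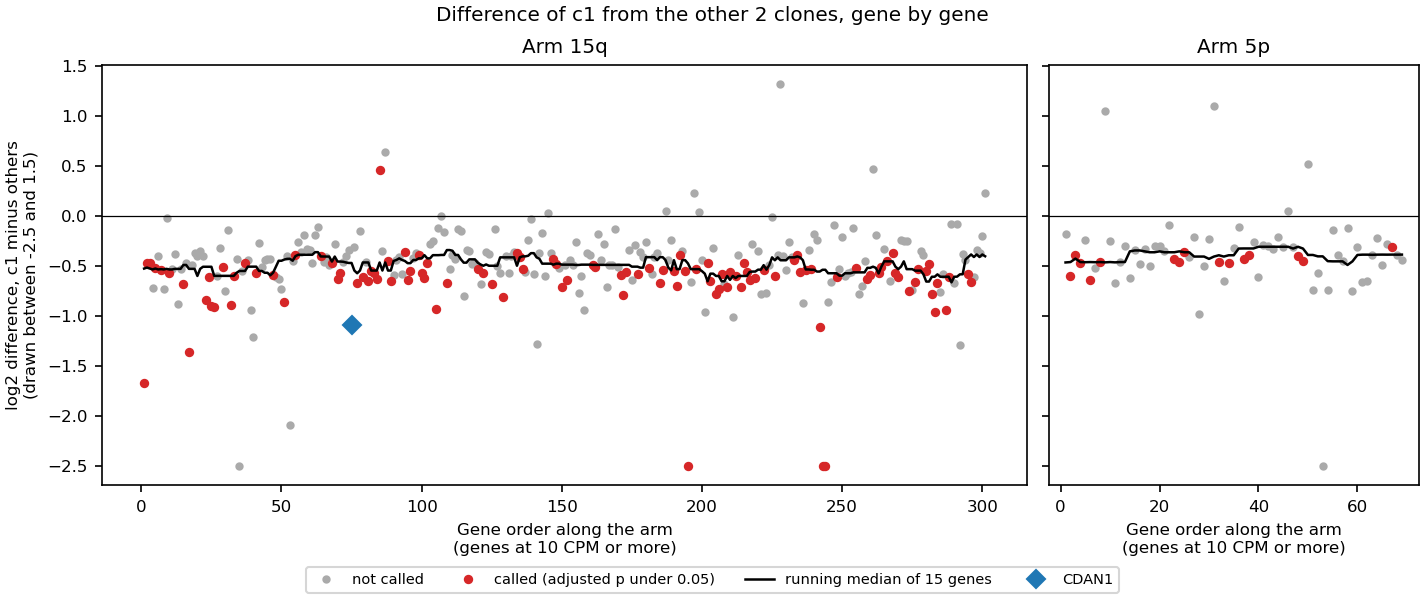
Log2 difference of c1 from the other 2 clones for the genes of 15q and 5p at 10 CPM or more, in their order along the arm, with genes called by edgeR in red and a running median of 15 genes as a line. The line stays below 0 along both arms, and CDAN1 (blue diamond, −1.09) lies below it.

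The short arm of chromosome 5 showed the same pattern at a smaller size. Its 104 genes had a median of −0.429, or 74.3% of the level in the others, with 95 negative and 16 called lower (15.4%, against 2.21% of all genes). The short arm of chromosome 4 had a median of −0.215 with 8 of 177 genes called lower (4.52%). Its long arm had a median of 0.185 with 14 of 327 called higher (4.28%, against 1.14% of all genes) and 0 lower. On the arms where c2 and NT differed from each other, such as 10p (0.263 and 0.241) and 7q (0.219 and 0.221), the c1 median lay at −0.164 and −0.098. Low windows of 10 Mb also lay on other arms, among genes at 10 CPM or more. On 18q the window from 30 to 40 Mb had a median of −0.397, with 17 of 18 genes negative. The window from 20 to 30 Mb, which holds IMPACT, had −0.29, with 12 of 14 negative. On Xp the window from 30 to 40 Mb had −0.427, with 8 of 10 negative. On 17q the windows from 60 to 70 and from 70 to 80 Mb had −0.328 and −0.317, with 34 of 37 and 51 of 67 negative. There c2 minus NT was negative as well, from −0.286 to −0.43. Away from 15q and 5p, 173 private genes were lower and 159 higher in c1.

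CDAN1 and its partners are spread over several arms. In the uninduced libraries the CDAN1 difference of c1 was −0.67 on the log2 scale, against a median of −0.48 for the 15q genes at 10 CPM or more. It ranked 63 of these 301 genes from the lowest. The cause of the lower CDAN1 level before induction was not tested. CDIN1 (listed as C15orf41), the binding partner of codanin and the second gene of this anaemia, lies on 15q as well and stood at 16.2 CPM in both c1 libraries and at 16.5 to 18.9 CPM in the others (−0.14 ± 0.11, edgeR adjusted p = 0.489). KIF23, a kinesin of cytokinesis on the same arm and a gene of another dyserythropoietic anaemia, stood at 61.8 and 56.2 CPM in c1 and at 72.8 to 80.1 CPM in the others (−0.37 ± 0.08, edgeR adjusted p = 0.0732). Its partner RACGAP1, the ASF1 genes and the COPII coat gene SEC23B lie elsewhere. None of the 7 passed the edgeR test, while DESeq2 called KIF23 as well as CDAN1 (adjusted p = 0.00254 and 0.0196), with log2 differences of 0.17 for RACGAP1, 0.16 for ASF1A, 0.02 for ASF1B and −0.17 for SEC23B.

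In the erythroid programme c1 differed from the other clones in single genes. Of 17 tested transcription factors of red cell development, 0 were higher and 1 was lower (5.88% called, against 3.35% of all genes). Their median log2 difference was −0.02, against −0.008 over all genes. GATA1 stood at 314.7 and 338.1 CPM in c1 and 313.1 to 362.9 CPM in the others, and KLF1, TAL1, NFE2 and LMO2 overlapped likewise. The 1 gene called was KLF13, a Krüppel-like factor of 15q, at 47.7 and 50.3 CPM in NT, 53.1 and 55.3 CPM in c2, and 20.1 and 20.2 CPM in c1. Its difference of −1.36 ± 0.09 (edgeR adjusted p = 0.00606) was larger than the 15q median. GATA2, a factor of progenitors and mast cells that is replaced by GATA1 as red cells mature, rose in c1, at 225.4 and 277.6 CPM against 150.5 to 177 CPM in the others (0.59 ± 0.09, edgeR adjusted p = 0.0377).

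Of 10 tested globin genes and chaperones, 2 (20%) were lower in c1 and 0 higher, at a list median of 0.01. Over all genes, 2.21% were lower and 1.14% higher. AHSP, the chaperone of free alpha globin, stood at 12.4 and 11.7 CPM in NT, 12.6 and 9.76 CPM in c2, and 2.01 and 1.75 CPM in c1 (−2.62 ± 0.17, edgeR adjusted p = 0.00551). HBB, the adult beta chain, had 5 and 6 reads in c1 and 32 to 47 in the others (−2.87 ± 0.43, edgeR adjusted p = 0.0374). The embryonic and fetal chains, the main globins of this line, did not pass the test. HBG2 stood at 5034 and 5167 CPM in c1 and 3865 to 4853 CPM in the others (0.21 ± 0.09, edgeR adjusted p = 0.242), and HBE1 at 3573 and 3208 CPM in c1 and 2590 to 4206 CPM in the others. HBZ, an embryonic alpha-like chain, stood at 1794 and 2140 CPM in c1, 1752 and 1846 CPM in NT, and 851.6 and 1063 CPM in c2, so that c2 was the clone that stood apart. HBA1 and HBA2, like HBG1 and HBG2, are near-identical copies whose separate values are uncertain.

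Of 24 tested genes of haem synthesis and iron uptake, edgeR called 1 higher and 1 lower in c1. These calls are 8.33% of the list, against 3.35% of all genes. The difference was positive in 17 of the 24. In 9 of the 24 both c1 libraries lay above the other 4, against 18.2% of all genes. ALAS2 (ENSG00000158578, chromosome X, 55009055 to 55031064), the erythroid first enzyme of haem synthesis, stood at 168.3 and 180.3 CPM in NT, 129.5 and 183.5 CPM in c2, and 310.4 and 369.3 CPM in c1. That is 1.04 ± 0.11 on the log2 scale (edgeR adjusted p = 0.0202). The last enzyme FECH (155.6 and 151.7 CPM in c1, 111.8 to 125.3 CPM in the others, edgeR adjusted p = 0.0531) and the haem exporter FLVCR1 (edgeR adjusted p = 0.0621) missed the threshold, with differences of 0.35 each. TFR2, the second transferrin receptor, fell, at 89.7 and 102.2 CPM against 121.7 to 160.8 CPM (−0.56 ± 0.10, edgeR adjusted p = 0.0473).

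Membrane genes gave 3 higher and 1 lower among 31 tested, with 10 above and 3 below the range of the other libraries. Over all genes the shares were 1.14% higher, 2.21% lower, 18.2% above and 17.4% below. RHAG, the Rh-associated channel, stood at 658.1 and 590.8 CPM in c1 and 439.8 to 489.1 CPM in the others (0.41 ± 0.07, edgeR adjusted p = 0.0432), and BSG, which encodes basigin, gave 0.63 ± 0.07 (edgeR adjusted p = 0.0209). The actin-capping gene TMOD1 fell, at 109.8 and 104.5 CPM against 141.1 to 161.9 CPM (−0.51 ± 0.07, edgeR adjusted p = 0.032). Of 16 tested red cell enzymes and late maturation genes, carbonic anhydrase CA2 was lower (−1.47 ± 0.24, edgeR adjusted p = 0.0403), 0 were higher and the list median was 0.08.

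**Figure D4:**
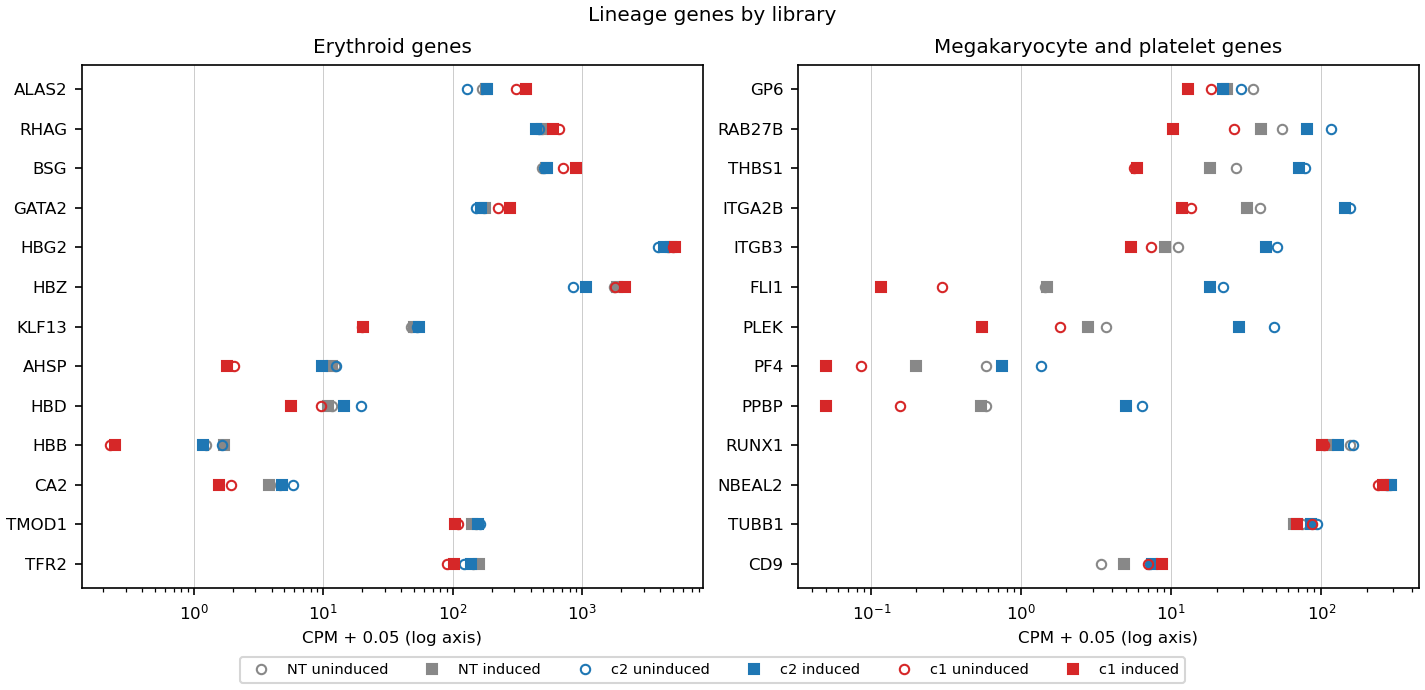
Level of erythroid (left) and megakaryocyte and platelet genes (right), in CPM plus 0.05 on a log axis, 1 symbol per library (grey NT, blue c2, red c1, open uninduced, filled induced). ALAS2 and RHAG lie highest and AHSP and HBB lowest in c1, while for ITGA2B, FLI1 and PLEK the clones stand in the order c1, NT, c2.

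Of 28 tested megakaryocyte and platelet genes (36 listed), 26 had a negative difference and edgeR called 1 lower and 0 higher. That 1 call is 3.57% of the list, against 3.35% of all genes. Both c1 libraries lay below the other 4 in 14 of the 28 (against 17.4% of all genes) and the median log2 difference was −0.91. The gene called was GP6, the platelet collagen receptor, which stood at 34.9 and 23.4 CPM in NT, 29.1 and 22.1 CPM in c2, and 18.3 and 12.8 CPM in c1 (−0.82 ± 0.11, edgeR adjusted p = 0.032). ITGA2B, the alpha chain of the platelet fibrinogen receptor, stood at 38.8 and 32.1 CPM in NT, 154.5 and 144.8 CPM in c2, and 13.6 and 11.6 CPM in c1. FLI1, a transcription factor of this lineage, stood at 1.39 and 1.43 CPM in NT, 21.97 and 18.15 CPM in c2, and 0.247 and 0.0661 CPM in c1.

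In both genes the 3 clones did not overlap, and in CPM NT lay nearer to c1 than to c2. For FLI1 the induced c1 value lies below the floor of 3 reads, so ratios to it are uncertain. ITGB3 (7.28 and 5.32 CPM in c1, 8.96 and 11.1 CPM in NT, 42.4 and 50.8 CPM in c2), PLEK and PPBP followed the same order. Their adjusted p in edgeR lay between 0.134 for ITGA2B and 0.221 for ITGB3, with the distance between NT and c2 part of the residual spread. THBS1, a matrix protein of platelets on 15q, stood at 5.55 and 5.89 CPM in c1, 26.87 and 17.97 CPM in NT, and 77.7 and 70.8 CPM in c2 (edgeR adjusted p = 0.0958). RUNX1 stood at 104.8 and 100.4 CPM in c1 and 110.4 to 161.7 CPM in the others (−0.42 ± 0.11, edgeR adjusted p = 0.103). The late platelet genes TUBB1 and NBEAL2 gave −0.04 and −0.18. In bulk RNA, fewer cells of a state and less RNA per cell cannot be told apart.

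**Figure D5:**
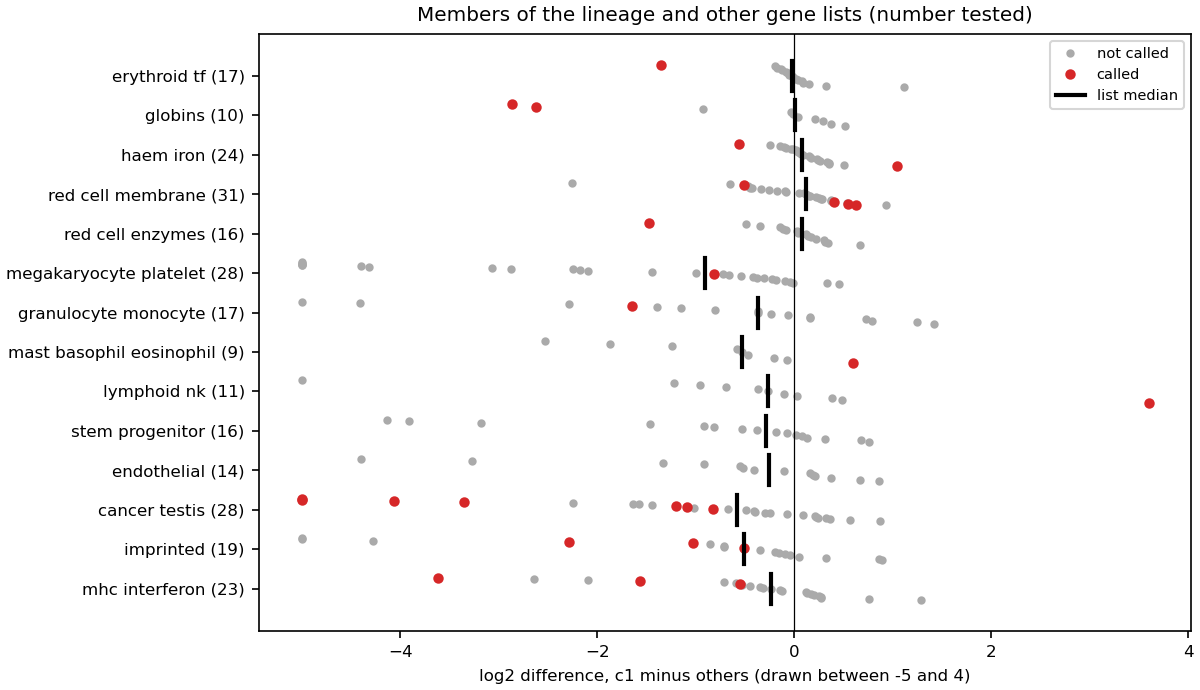
Log2 difference of c1 from the other 2 clones for each tested member of 14 gene lists (number tested in brackets), with genes called by edgeR in red and the list median as a black bar. The megakaryocyte and platelet list has the lowest median, at −0.91, while the 5 erythroid lists have medians between −0.02 and 0.12.

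Markers of other blood lineages showed single calls, where 3.35% of all genes were called. Among 17 tested granulocyte and monocyte genes, the lysosomal glycoprotein gene CD68 was lower, at 20.4 and 12.2 CPM in c1 against 39.5 to 56.0 CPM (−1.65 ± 0.17, edgeR adjusted p = 0.0209), and the list median was −0.37. The Fc receptor gene FCGR2A stood at 71.2 and 69.2 CPM in c1, below 103.1 to 208.3 CPM in the others, without passing the test (edgeR adjusted p = 0.0896). MPO, ELANE, S100A8 and S100A9 were at 3 reads or fewer in every library. Mast cell, basophil and eosinophil genes (9 tested, median −0.53) had GATA2 as the only call. Among 16 stem and progenitor genes 0 were called, and 7 had both c1 libraries below the others (17.4% of all genes did), among them MLLT3, at 2.44 and 1.29 CPM in c1, 24.3 and 23.8 CPM in NT, and 10.3 and 7.60 CPM in c2 (edgeR adjusted p = 0.0724). Of 11 tested T, B and NK cell genes CD3G alone was called.

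HOX genes (21 tested) gave 0 calls, where 3.35% of all genes were called, and a median of 0.02. Both c1 libraries lay above the other 4 in 6 of them and below in 0, against 18.2% and 17.4% of all genes. In HOXA3 both c1 libraries lay above the rest, at 3.18 and 3.57 CPM against 0.514 and 0.664 CPM in c2 and at most 0.0754 CPM in NT (edgeR adjusted p = 0.15). Endothelial genes (14 tested, median −0.26) and neural and epithelial genes (17 tested, median 0.05) also gave 0 calls.

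Cancer-testis antigens, germ line genes, many on the X chromosome, that tumour lines often express, held the highest share of calls of the 24 lists. Of 28 tested, 7 (25%, against 3.35% of all genes) were lower in c1 and 0 higher, with a median of −0.58. PAGE2 (ENSG00000234068, chromosome X, 55089008 to 55092842) had 4 reads in each c1 library, 184 and 207 in NT, and 537 and 561 in c2 (−6.52 ± 0.79, edgeR adjusted p = 0.0246). Its neighbour PAGE2B stood at 1.34 and 1.79 CPM in c1 and at 19.4 to 32.7 CPM in the others. CTAG2 was listed at 0 in c1 and stood at 2.13 to 3.43 CPM elsewhere. GAGE1 (−0.83 ± 0.08, edgeR adjusted p = 0.0172), XAGE1B (−1.09 ± 0.10, edgeR adjusted p = 0.0166) and PAGE1 (−1.20 ± 0.12, edgeR adjusted p = 0.0205) differed less, and MAGEA4 was the other call. These families hold near-identical copies, so the split between members is uncertain, and over the whole arm Xp 4 private genes were higher and 9 lower.

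Of 23 tested antigen presentation and interferon-induced genes, 3 were lower and 0 higher (13% called, against 3.35% of all genes). The 3 were IFITM2 and IFITM3, which are neighbours on 11p and restrict virus entry, and B2M of 15q. IFITM3 stood at 166.9 and 165.9 CPM in NT, 196.3 and 182.8 CPM in c2, and 57.6 and 62.5 CPM in c1 (−1.57 ± 0.10, edgeR adjusted p = 0.00551). The interferon list had a median of −0.24, with 9 members positive and 14 negative, so its calls do not describe the whole list. Both c1 libraries lay above the other 4 in 4 members and below them in 6. Over all genes these shares were 18.2% and 17.4%. IFITM genes are close copies of each other and their split is uncertain.

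Imprinted genes gave 3 lower and 0 higher among 19, with 11 below the range of the others and a median of −0.51. Over all genes 2.21% were called lower and 17.4% lay below the range. NDN and UBE3A belong to 15q. NDN, a growth suppressor read from the paternal copy, stood at 1.38 and 2.58 CPM in c1 and 8.71 to 9.95 CPM in the others (−2.29 ± 0.25, edgeR adjusted p = 0.0209). CDKN1C, a cell-cycle inhibitor read from the maternal copy on 11p, stood at 14.8 and 15.1 CPM in c1 and 25.8 to 37.1 CPM in the others (−1.03 ± 0.14, edgeR adjusted p = 0.032). Among all 19, 15 were negative and 4 positive. DLK1, the Notch ligand-like protein, was positive without passing the test and stood at 210.2 and 212.8 CPM in c1, 168.5 and 138 CPM in NT, and 80.2 and 71.6 CPM in c2 (edgeR adjusted p = 0.223).

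Detoxification enzymes moved in both directions, with 2 of 31 tested higher and 1 lower. These calls are 9.68% of the list, against 3.35% of all genes. NQO1, a quinone reductase, stood at 91.7 and 85.6 CPM in c1 and 41.9 to 49.2 CPM in the others (0.98 ± 0.08, edgeR adjusted p = 0.01). GSTP1, a glutathione transferase, gave 0.47 ± 0.07 (edgeR adjusted p = 0.0401), while the microsomal transferase MGST1 stood at 10.3 and 6.95 CPM in c1 and 40.1 to 49.1 CPM in the others (−2.39 ± 0.13, edgeR adjusted p = 0.00391). Of 41 BCR-ABL, JAK and STAT5 pathway genes 4 (9.76%) were lower and 0 higher, against 2.21% and 1.14% of all genes. The cyclin genes CCND1 (45.9 and 33.4 CPM in c1, 63.4 to 106.7 CPM in the others, −1.14 ± 0.19, edgeR adjusted p = 0.042) and CCND2 (−0.55 ± 0.09, edgeR adjusted p = 0.0401), the pro-apoptotic BCL2L11 (−0.82 ± 0.11, edgeR adjusted p = 0.028) and SPRED1 of 15q made up these calls. Only CCNB2 of 15q was called among 39 genes of S, G2 and M phase, whose median was −0.01.

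Matrix and mesenchymal genes (38 tested, median −0.30) gave FN1 higher and S100A6 and COL6A1 lower (COL6A1 −2.07 ± 0.35, edgeR adjusted p = 0.0441). These calls are 7.89% of the list, against 3.35% of all genes. The COL6A1 difference was −2.68 without induced c1 and −1.58 without uninduced c1. Its call was lost with limma voom (adjusted p = 0.0536) and with the offset for transcript length (edgeR adjusted p = 0.169). Among 37 cytokines, chemokines and receptors, the interleukin 10 receptor gene IL10RA was higher, at 19.7 and 28.8 CPM in c1 and 6.68 to 11.4 CPM in the others (1.498 ± 0.24, edgeR adjusted p = 0.0401). Integrins and adhesion molecules (30 tested, median −0.19) and the clustered protocadherins (4 tested of 50 listed, median −0.11) gave 0 calls.

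Private genes were defined as called genes with both c1 libraries, uninduced and induced, outside the range of the NT and c2 libraries. Their presence with and without doxycycline therefore follows from this definition and is not a separate result. A test of whether the c1 difference depends on induction called 0 of 14075 genes in edgeR (0%), with 122 genes at an unadjusted p under 0.05. For this interaction DESeq2 called 9 genes and limma voom 0. ALAS2 differed by 1.07 on the log2 scale between uninduced libraries and by 1.02 between induced ones, and DCBLD2 by −3.43 and −3.44. FN1 differed by 2.99 and 3.40. Other named genes moved more between states, such as IMPACT (−6.479 and −5.505), DOCK10 (−5.07 and −6.09) and ST5 (2.87 and 1.76). The interaction test compares 1 library per clone and state, so 0 calls do not show that a difference is equal in both states.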

How the data were processed

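RNA-seq was made from 6 K562 cultures. Transcripts had been quantified with Salmon 1.5.2 and the build GRCh37 (hg19) is named, per the submitters' processing notes. No source used here gives the trimming, the annotation or the strand. The deposited tables give an estimated count (expected count, not whole) per transcript, a value in TPM and an effective length in bases (a unit of its own), per the file headers. Of 167268 transcripts, 151039 (90.3%) matched GENCODE 29. Adding up the estimated counts of each gene's transcripts, with rounding, gave values for 33367 genes. Gene coordinates are those of GENCODE 29 on GRCh38, used for position only. Unmatched transcripts (6.23% to 6.5% of reads) were left out, and reads of mitochondrial genes made up 4.31% to 6.11%.

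Libraries were grouped by the genotype label. edgeR 4.0.16 (R 4.3.3) tested c1 against the other 4 libraries with doxycycline as a term: filterByExpr with a smallest group of 2 (14075 of 21197 genes kept), TMM, the quasi-likelihood test with 3 residual degrees of freedom, two-sided, and Benjamini-Hochberg adjustment over all genes tested at 0.05. Log2 CPM values by library and state, and the medians made from them, used a prior count of 2, whereas fitted differences used edgeR's default. DESeq2 1.42.0 and limma 3.58.1 (voom), other filters, scalings and designs and leaving out each library were alternatives. The scripts were tested on simulated data. TPM served only to check levels, and effective length only as an offset. Depth varied little between libraries, and genes with few reads have wide errors from counting alone.

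Named were the 15 private protein-coding genes with the largest difference in each direction at 5 CPM or more in the higher group, up to 4 called members of each of 24 gene lists per direction, and CDAN1 with its partners. The others named, such as MLLT3, HOXA3 and the genes of neighbouring runs, were chosen after their values were seen. The members and lists were chosen with earlier results of these data known. Lists and arms are described by counts and medians without a test. A few results are not reported here.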

Additional observations from a re-analysis of the deposited data

How the results depend on the processing

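The number of genes called for c1 depended on the settings. Against 472 calls (161 higher, 311 lower), edgeR gave 722 (245 and 477) without the low-count filter, 472 (156 and 316) with DESeq2 size factors, 4049 (1981 and 2068) with the clone as a factor, 126 (26 and 100) with unmatched transcripts kept as features and 221 (59 and 162) with an offset for transcript length. Without a replicate block, that is without the doxycycline term, it gave 792 (308 and 484). DESeq2 gave 1731 (691 and 1040) and limma voom 417 (170 and 247). Chosen after seeing the data, DESeq2 with the clone as a factor gave 3051 (1366 and 1685), and edgeR without the genes of 15q gave 220 (80 and 140). The share of higher genes, 34.1%, was 48.9% with the clone as a factor and 20.6% with unmatched transcripts kept. Leaving out a library gave 0 to 104 calls (0 to 26 higher, 0 to 78 lower): 62 without uninduced NT, 64 without induced NT, 67 without uninduced c2, 104 without induced c2, and 0 without uninduced or induced c1 (1190 and 1476 genes at an unadjusted p under 0.05), where the lone c1 library is assumed to vary like the others. Of the 61 named genes called, 29, 27, 32 and 33 were called without each NT and c2 library in turn and 0 without either of c1. Calls of named genes were lost in 30 with unmatched transcripts kept, 15 with the length offset, 8 with voom, 2 without the doxycycline term and 1 with DESeq2. Of the 68 named genes only ASF1B changed direction under any alternative run: not called, it changed sign without uninduced c2 (−0.0154), without induced c2 (−0.0366) and without the genes of 15q (−0.000144), and lay between −0.0366 and 0.0569 as each library was left out. DESeq2 called 1017 genes for c2, 1016 for NT and 9 for the dependence on doxycycline. With genes at 10 CPM or more, the median of 15q was −0.488 and that of 4q 0.236. The cause of these moves was not tested. Replicate numbers follow the doxycycline state here, so the block pairs states and not cultures. For genes such as HBB, with under 10 reads in c1, depth limits the size of the difference more than its direction.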

Other observations

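Outside 15q and 5p, private genes of the same direction also lay close together, though genes that were not private could lie between them. Of 332 such genes, 61 formed 28 runs with gaps of at most 250 kb, and 5 runs held 3 or more genes. Besides GAA, SGSH and SLC26A11 of chromosome 17, they were SHC2, BSG and PALM (chromosome 19), GALNT7, SAP30 and HAND2 (chromosome 4), SERPINB9, SERPINB6 and NQO2 (chromosome 6), all higher in c1, and GAGE12F, GAGE1 and PAGE1 (chromosome X), lower. The run on chromosome 19 spans 14 tested genes, with log2 differences from −0.65 (PRSS57) to 1.00 (SHC2 and PALM). HMGB2, which lies between GALNT7 and SAP30, gave 0.15. SERPINB9, the inhibitor of granzyme B, stood at 208.4 and 158.2 CPM in c1 and 81.1 to 105.1 CPM in the others. HBB and the pseudogene HBBP1 of the beta globin cluster formed a lower pair, with HBBP1 at 15.1 and 10.4 CPM in c1 and 38.3 to 47.1 CPM in the others (−1.73 ± 0.18, edgeR adjusted p = 0.0205). VENTX and ADAM8 of chromosome 10 formed another. Distances between neighbours depend on gene density, and no test of the runs was made.

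Some private genes outside the lists are given here as single genes, chosen after their values were seen. SYK, a tyrosine kinase downstream of immune receptors, stood at 60.4 and 61.6 CPM in NT, 88.9 and 82.9 CPM in c2, and 8.72 and 7.57 CPM in c1 (−3.17 ± 0.24, edgeR adjusted p = 0.00748). LCP2, the adaptor SLP-76, stood at 47.6 to 88.9 CPM in the others and 23.4 and 19.7 CPM in c1 (−1.58 ± 0.24, edgeR adjusted p = 0.0378). DOK2, an adaptor that restrains kinase signalling, gave −1.99 ± 0.34 (edgeR adjusted p = 0.0441), and DOCK8, an exchange factor related to DOCK10, gave −1.01 ± 0.07 (edgeR adjusted p = 0.00551). The B-cell lectin gene CD22 rose, at 9.64 and 11.5 CPM in c1 and 3.05 to 4.65 CPM in the others (1.49 ± 0.21, edgeR adjusted p = 0.032). FOS, an early-response transcription factor, stood at 13.99 and 13.92 CPM in c1 and at 5.47 to 7.20 CPM in the others (1.09 ± 0.15, edgeR adjusted p = 0.032).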
